A study of Patiria miniata with 46 samples.

Results

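BMP2-4, ADMP, Chordin and Tolloid, 4 genes of the bone morphogenetic protein (BMP) pathway, were followed section by section through arms of the bat star Patiria miniata, a sea star. They were taken by the gene symbol of their row in the deposited count table, a rule that uses no measured value. The choice was made with earlier results of these data known. They are 4 of 66 symbol-named genes and of 23869 loci in all, and each is 1 row, identified in the table as BMP2-4_V2_PB.822.2, ADMP_V2_PB.9416.1, Chordin_V2_PB.13239.10 and Tolloid_V2_PB.21682.1. Genome coordinates and sequences of these rows were not used here.

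Polyadenylated RNA was sequenced from serial cryosections of arms of young animals. The proximo-distal series runs along the length of an arm and has 22 sections from specimen 1. The oral-aboral series crosses the thickness of an arm, between its mouth-side and upper faces, and has 8 sections, also from specimen 1. The left-right series runs across the width of an arm and has 16 sections from specimen 2. No treatment or genotype is given, and sections were numbered from 1 without a statement of which end that is. Every position was sampled once, so what the tests measure is how far single sections lie from a trend inside 1 arm. They hold nothing on the spread between animals. Neighbouring sections may resemble each other, which makes the p-values approximate and would tend to make them too small. How far neighbours resemble each other was not tested.

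BMP2-4 and ADMP are secreted ligands of the BMP branch of the TGF-beta family. Chordin is a secreted antagonist that binds BMP ligands and keeps them from their receptors, and Tolloid is a secreted metalloprotease that cleaves Chordin and so frees the ligand. In vertebrate and sea urchin embryos these genes pattern the dorsal-ventral axis, and in frog embryos ADMP is transcribed on the side where Chordin is made, away from the main domain of BMP4.

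The counts of a section summed to between 196002 and 680685 in the proximo-distal series, 2573762 and 6921408 in the oral-aboral series and 250704 and 1591759 in the left-right series. Levels are given as normalised CPM, that is counts per 1000000 counts of a library after TMM scaling within a series. Transcript lengths were not available, so the level of 1 gene is not set against that of another, and levels are not compared between series. A single unnamed locus took between 12.2% and 50.3% of the counts in proximo-distal sections 12 to 22, against at most 2.16% in sections 1 to 11. In such bulk sections, fewer cells of a type and less RNA per cell cannot be told apart.

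Toward high section numbers of the proximo-distal series BMP2-4 and Tolloid fell, while Chordin showed no trend that passed the test. Along the oral-aboral series BMP2-4 rose up to section 7, in a trend whose call was lost when any single section was omitted. Chordin and Tolloid were lowest in section 8, though their straight lines did not pass. The count of BMP2-4 per count of Chordin was several times higher in sections 7 and 8 than elsewhere. Across the left-right series BMP2-4 was lower in sections 9 to 16 than in the mirror sections 1 to 8. ADMP, Chordin and Tolloid had mean differences of the same sign, which did not pass in these pairs.

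**Figure D1:**
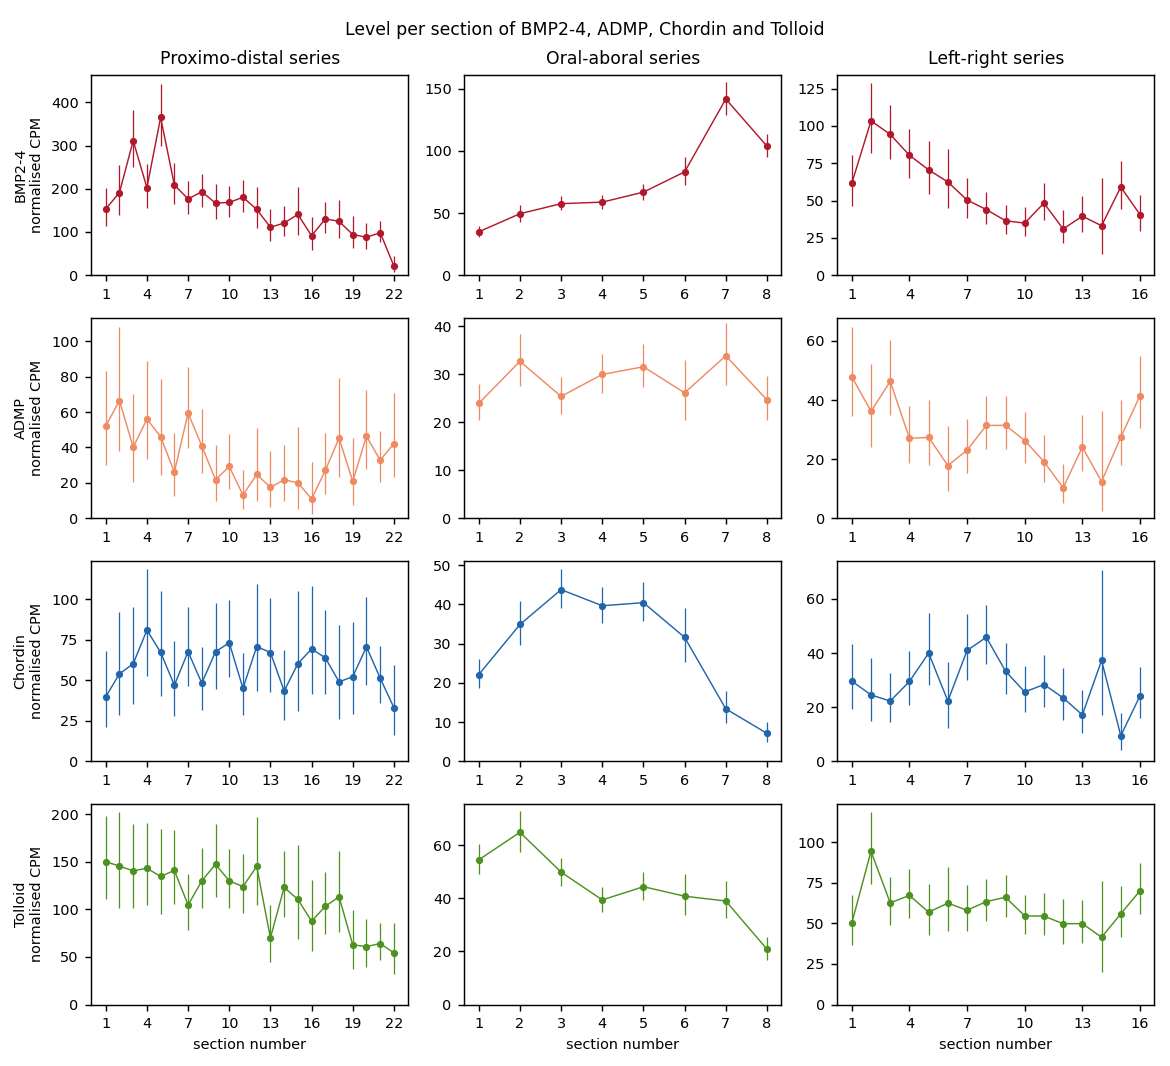
Normalised CPM of BMP2-4, ADMP, Chordin and Tolloid (rows) against section number in the proximo-distal, oral-aboral and left-right series (columns). Points are single sections and bars are exact Poisson 95% intervals of the count, which cover counting error only. In the oral-aboral series BMP2-4 reached 141.7 in section 7, against 34.9 in section 1. Chordin had 7.16 in section 8, against 43.8 in section 3.

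BMP2-4, the first of the ligands, passed a trend test on each axis. In the proximo-distal series it ranged between 21.1 normalised CPM in section 22 and 364.8 in section 5, with a median of 152.7. Its mean level was lower in each later block of sections. Single sections varied, and section 1, at 153.1, lay below the highest of sections 8 to 15, at 193.1. It averaged 229.7 ± 77.7 in sections 1 to 7, 154.1 ± 28.6 in sections 8 to 15, then 92.5 ± 35.6 in sections 16 to 22 (SD over 7, 8 and 7 sections). Sections 3 and 5 were the highest of the series, at 311.0 and 364.8. The 7 sections numbered 16 to 22 had at most 130.3 normalised CPM, and the 7 numbered 1 to 7 at least 153.1. How many of all loci separate in this way was not computed. The exact Poisson intervals of the counts did overlap, at 97.6 to 170.4 in section 17 and 113.7 to 201.9 in section 1. Over the whole series the fit gave a log2 change of -1.86 ± 0.32 (SE, edgeR quasi-likelihood adjusted p = 3.99e-05). In this trend 39.3% of the 11067 loci tested passed the threshold of an adjusted p of 0.05, 20.3% with a positive and 19.1% with a negative sign. Of the 4 genes 2 passed, both negative. BMP2-4 passed with any single section omitted (22 fits), with changes between -2.08 and -1.58.

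Along the oral-aboral series BMP2-4 had 34.9, 49.4, 57.5, 58.8, 66.8, 83.1, 141.7 and 103.8 normalised CPM in sections 1 to 8. The level was higher in each section than in the one before it, except in section 8. The fitted log2 change was 1.73 ± 0.29 (SE, edgeR quasi-likelihood adjusted p = 0.0468), and BMP2-4 was the only one of the 4 genes called, in a trend where 0.754% of 19769 loci passed (0.688% positive and 0.0658% negative). With any single section omitted the call was lost, at adjusted p between 0.0840 and 0.168 over 8 fits, although the change stayed between 1.45 and 2.00. Sections 6 to 8 against 1 to 3 gave 1.21 (edgeR adjusted p = 0.482). A spline, which allows for any pattern along the axis, was passed by BMP2-4, Chordin and Tolloid (edgeR adjusted p = 0.00861, 0.00101 and 0.0310), in a test that 44.1% of loci passed. The spline kept BMP2-4 in each of the 8 fits without 1 section.

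Across the left-right series BMP2-4 ranged between 31.0 normalised CPM in section 12 and 103.4 in section 2, with a median of 49.3. The 5 sections numbered 12 to 16 averaged 40.7 ± 11.1 and the 5 numbered 1 to 5 averaged 82.0 ± 17.0 (SD). Section 15, at 59.0, was the highest of sections 12 to 16, and section 1, at 61.6, the lowest of sections 1 to 5. The levels of these blocks thus did not overlap either. The exact Poisson intervals of the counts did overlap, at 44.6 to 76.6 in section 15 and 46.3 to 80.4 in section 1. Section 14 rests on 8 counts. The edgeR comparison of these blocks gave a log2 change of -1.02 and did not pass (adjusted p = 0.0567). The share of all loci that separate like this was not computed. When each section from 9 to 16 was paired with its mirror image about the middle of the series, BMP2-4 was lower in 8 of 8 pairs, by a mean log2 difference of -0.76 ± 0.41 (SD). The exact sign-flip permutation test gave p = 0.00781, the smallest that 8 pairs allow, and an adjusted p of 0.0313 over the 4 genes. The means of ADMP, Chordin and Tolloid were also negative, at -0.43, -0.37 and -0.21. They did not pass (exact permutation adjusted p = 0.164 each), and Chordin and Tolloid were each lower in 6 of 8 pairs. The share of all loci that are lower in this way was not computed. The edgeR slope of BMP2-4 was -1.26 ± 0.28 (adjusted p = 0.0304), where 1.07% of 16523 loci passed (0.92% positive and 0.151% negative). The slopes of ADMP, Chordin and Tolloid were negative too, at -0.64 ± 0.35, -0.58 ± 0.37 and -0.33 ± 0.24 (SE). None of these passed (edgeR adjusted p = 0.473, 0.557 and 0.621). With single sections omitted the slope of BMP2-4 passed 9 times of 16, and its highest adjusted p, 0.106, came without section 16. The left-right spline called BMP2-4 alone of the 4 (edgeR adjusted p = 0.00173), as it did 25.6% of loci. The change from the edges to the middle of the series was -0.56 ± 0.26 (edgeR adjusted p = 0.135) in a test that 21.8% of loci passed (12.9% positive and 8.96% negative), and none of the 4 genes passed it, with 2 at an unadjusted p under 0.05 and none called by DESeq2 or limma-trend. Without both end sections the midline change of BMP2-4 was -1.08 and passed (edgeR adjusted p = 0.0188).

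**Figure D2:**
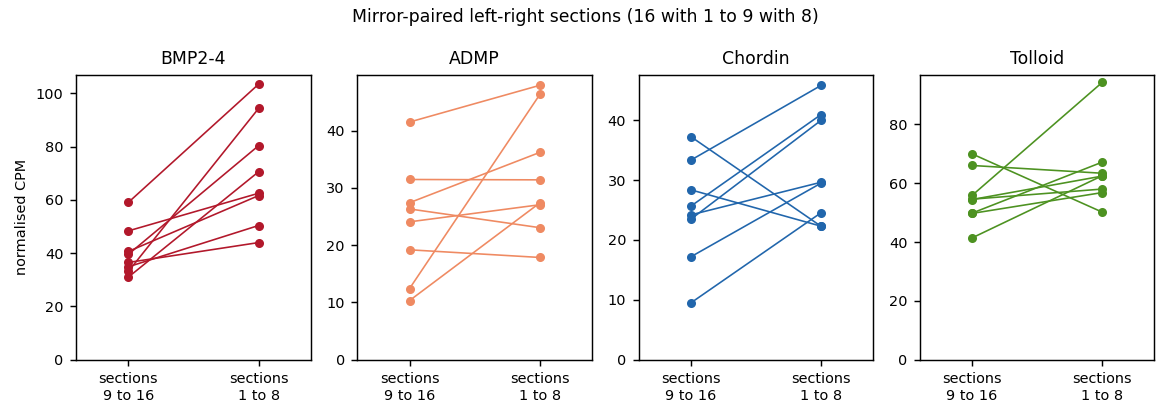
Normalised CPM of left-right sections 9 to 16 (left) and of their mirror sections 8 to 1 (right), with a line for each of the 8 pairs. For BMP2-4 all 8 lines are lower in sections 9 to 16, with a mean log2 difference of -0.76 ± 0.41 (SD).

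ADMP, the other ligand, had a dip along the arm. In the proximo-distal series it ranged between 11.0 normalised CPM in section 16 and 66.5 in section 2, with a median of 31.0, on counts of 3 to 29 a section. It averaged 49.5 ± 13.5 in sections 1 to 7, 23.6 ± 8.42 in sections 8 to 15, then 32.2 ± 13.4 in sections 16 to 22 (SD). Within the last stretch it averaged 40.4 ± 6.94 over the 3 sections 20 to 22, against 26.0 ± 14.4 over the 4 sections 16 to 19 (SD). The straight line gave a log2 change of -0.76 ± 0.40 (edgeR adjusted p = 0.138), and the spline passed (adjusted p = 0.00247), as did 53.4% of loci. Without sections 20 to 22, a choice made after the values were seen, the straight line gave -1.75 (edgeR adjusted p = 0.00626). BMP2-4 averaged 69.1 ± 41.9 over sections 20 to 22, against 110.0 ± 20.2 over sections 16 to 19.

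ADMP stayed within a narrow range along the oral-aboral series, with 23.9, 32.7, 25.4, 29.9, 31.5, 26.1, 33.8 and 24.6 normalised CPM in sections 1 to 8. Its fitted log2 change was 0.07 ± 0.28 (edgeR adjusted p = 1.000). Across the left-right series it ranged between 10.3 in section 12 and 47.9 in section 1, with a median of 27.2. Both edges stood high there, at 41.5 in section 16 and 47.9 in section 1. The middle-over-edge change was -0.78 ± 0.30 and missed the threshold (edgeR adjusted p = 0.0645). In mirror pairs ADMP was lower in sections 9 to 16 in 5 of 8 (mean log2 difference -0.43 ± 0.70 SD, exact permutation adjusted p = 0.164).

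Chordin, the antagonist, was high inside the oral-aboral series. Its oral-aboral levels were 22.1, 34.9, 43.8, 39.7, 40.5, 31.6, 13.4 and 7.16 normalised CPM in sections 1 to 8. The level was highest in sections 3 to 5 and lowest at the section 8 end. Section 8 rests on 34 counts and section 7 on 44, so the counting error there is larger than in section 3, which had 309. The spline passed in each of the 8 fits without 1 section (edgeR adjusted p between 0.000738 and 0.0127). The straight line did not (log2 change -1.54 ± 0.88, edgeR adjusted p = 0.660). Sections 3 to 6 over sections 1, 2, 7 and 8 gave 1.00 ± 0.41 (edgeR adjusted p = 0.0784), where 41.3% of loci passed (22.1% positive and 19.2% negative), and the other 3 genes did not pass either. With limma-trend the inner change of Chordin was 1.20 (adjusted p = 0.0471). The square of position, fitted beside a slope in place of the 2 blocks, gave 1.78 (edgeR adjusted p = 0.000109). That value is a fitted change from the ends to the middle, so its size is not comparable with that of the block difference.

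In the proximo-distal series Chordin ranged between 33.2 normalised CPM in section 22 and 81.0 in section 4, with a median of 60.2. The blocks averaged 59.6 ± 13.9, 59.5 ± 12.2 and 55.7 ± 13.3 in sections 1 to 7, 8 to 15 and 16 to 22 (SD). The fitted log2 change of -0.16 ± 0.26 (edgeR adjusted p = 0.663) did not pass. Scaled by total count alone, where the median change of all loci was -0.66 and not 0.01, Chordin had -0.89 (edgeR adjusted p = 0.0338), which is -0.23 relative to that median. Across the left-right series Chordin ranged between 9.49 in section 15 and 45.8 in section 8, with a median of 27.0. Central sections 6 to 11 averaged 32.7 ± 9.14 and the outer sections 25.8 ± 8.97 (SD, n = 6 and 10). The middle-over-edge change of 0.65 ± 0.32 (edgeR adjusted p = 0.150) did not pass, but without both end sections it was 1.45 and did (edgeR adjusted p = 0.0350).

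Tolloid, the protease, fell along the arm as BMP2-4 did. It ranged between 54.3 normalised CPM in section 22 and 150.1 in section 1 of the proximo-distal series, with a median of 123.5. It averaged 137.1 ± 15.1 in sections 1 to 7, 122.5 ± 24.3 in sections 8 to 15, then 78.0 ± 23.3 in sections 16 to 22 (SD). The lowest levels came last, with 59.8 ± 5.02 over sections 20 to 22, against 91.7 ± 22.0 over sections 16 to 19. The fitted log2 change was -1.22 ± 0.23 (edgeR adjusted p = 0.000125), and it passed in all 22 fits without 1 section. In the oral-aboral series Tolloid had 54.5, 64.9, 49.9, 39.4, 44.4, 40.8, 39.0 and 20.8 in sections 1 to 8. The straight line gave a log2 change of -1.13 ± 0.32 there and did not pass (edgeR p = 0.00749, adjusted p = 0.230). The spline call there ended when section 3, 5 or 8 was omitted (edgeR adjusted p = 0.0718, 0.0697 and 0.183). Across the left-right series Tolloid averaged 59.8 ± 4.86 in the central sections and 59.8 ± 15.0 in the outer sections, and its midline change was -0.15 ± 0.21 (SE, edgeR adjusted p = 0.644).

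**Figure D3:**
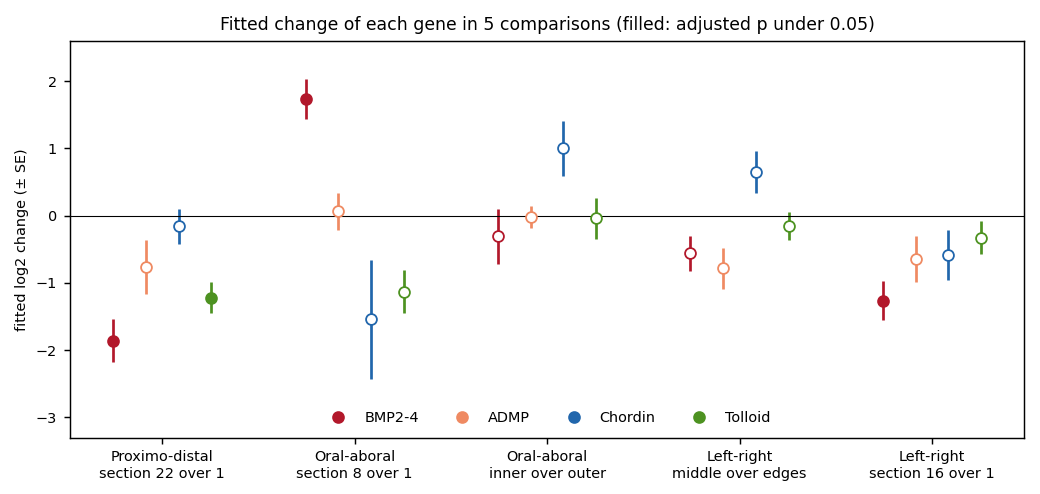
Fitted log2 change with its SE for the 4 genes in 5 comparisons, filled where the adjusted p was under 0.05. The 4 filled points are BMP2-4 and Tolloid in the proximo-distal trend (-1.86 and -1.22), BMP2-4 in the oral-aboral trend (1.73) and BMP2-4 in the left-right slope (-1.26).

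Ratios of the raw counts of 2 genes within a section do not depend on how libraries are scaled, and their trend shows whether 2 genes follow different courses. All 6 pairs of the 4 genes were compared in 4 contrasts, 24 tests in all, and 6 passed after adjustment. The pairs share genes and so are not independent. Pairs of other loci were not tested, so no share over all loci can be set beside this count. The largest shift was between the ligand BMP2-4 and its antagonist Chordin on the oral-aboral axis. Sections 1 to 8 had 1.58, 1.42, 1.31, 1.48, 1.65, 2.62, 10.5 and 14.3 counts of BMP2-4 per count of Chordin. Sections 1 to 5 were thus alike within 1.31 to 1.65, and sections 7 and 8 stood well above them. The log2 slope was 3.32 (exact permutation adjusted p = 0.00913). Omitting section 2, 3 or 8 ended the call (permutation adjusted p = 0.0627, 0.0980 and 0.0635), while the slope stayed between 2.57 and 4.21 over the 8 fits.

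Along the arm the same ratio fell toward high section numbers. Its geometric mean was 3.71 counts of BMP2-4 per count of Chordin in sections 1 to 7, 2.56 in sections 8 to 15, then 1.51 in sections 16 to 22. The log2 ratios averaged 1.89 ± 0.44, 1.36 ± 0.44 and 0.59 ± 0.64 in these blocks (SD). The slope was -1.82, with p = 1e-05, the smallest that 100000 resamples of a permutation test can give, and an adjusted p of 0.00024. It passed in all 22 fits without 1 section. Chordin rose relative to Tolloid along the arm, by 1.09 on the log2 scale (permutation adjusted p = 0.00913), also in 22 of 22 such fits. The ratio of BMP2-4 to Tolloid changed by -0.72 and that of BMP2-4 to ADMP by -1.15, and neither passed (permutation adjusted p = 0.0985 and 0.176). Without section 22 these changes were -0.33 and -0.40, and without section 1 that of BMP2-4 to Tolloid was -0.94 and passed (permutation adjusted p = 0.0298).

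Against the protease, BMP2-4 also shifted along the oral-aboral axis. Sections 1 to 8 had 0.641, 0.762, 1.15, 1.49, 1.504, 2.03, 3.62 and 4.96 counts of BMP2-4 per count of Tolloid, a slope of 2.86 on the log2 scale (exact permutation adjusted p = 0.000595). The ratio was higher in each section than in the one before it, though sections 4 and 5 were nearly equal. BMP2-4 over ADMP, the ratio of the 2 ligands, had a slope of 1.63 (adjusted p = 0.00516 by the exact permutation test) and rose to 4.20 counts per count in section 8, against 1.46 in section 1. Both kept their calls in all 8 fits without 1 section. ADMP over Tolloid had a slope of 1.23 (adjusted p = 0.00913, exact permutation test) and lost its call when section 8 was omitted (adjusted p = 0.0610, exact permutation test). Across the left-right series none of the 6 central-minus-outer differences passed. The largest was BMP2-4 over Chordin, at -0.71 (permutation p = 0.0879, adjusted p = 0.176), and none had an unadjusted p under 0.05.

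**Figure D4:**
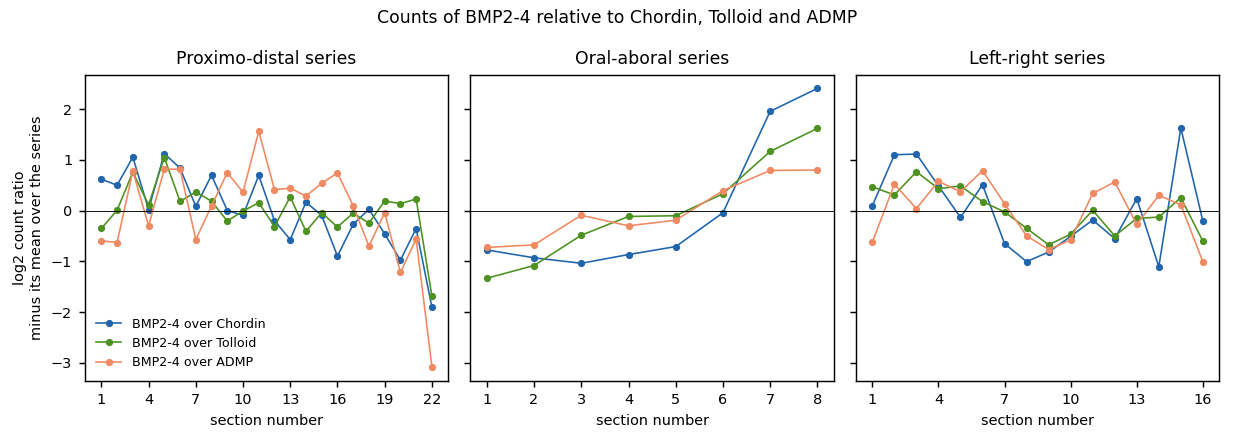
Log2 ratio of the counts of BMP2-4 to those of Chordin, Tolloid and ADMP, minus its mean over the series, against section number in the 3 series. The ratio to Chordin rises to its highest values in oral-aboral sections 7 and 8 and declines along the proximo-distal series, with slopes of 3.32 and -1.82.

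Correlations between the genes' own profiles are given for each series. The series differ in plane or arm and in depth, and differences between their r values were not tested. As a description over sections of 1 series, which share library and depth, the Pearson r of log2 CPM between BMP2-4 and Tolloid was 0.79 in the proximo-distal series (n = 22), -0.67 in the oral-aboral series (n = 8) and 0.59 in the left-right series (n = 16). Between BMP2-4 and Chordin it was 0.41, -0.57 and -0.12, and between Chordin and Tolloid 0.15, 0.74 and -0.01. BMP2-4 and ADMP had 0.17, 0.31 and 0.53.

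The symbol-named genes most like each member, by the mean of r over the 3 series among 57 compared, are given next as a description. Hox genes are homeobox transcription factors, and Wnt proteins are secreted ligands. For BMP2-4 they were Hox11-13d, the paired-box gene Pax2-5-8 and Hox5, with mean r of 0.51, 0.47 and 0.46. For Chordin they were Hox9-10, Hox8 and Wnt1, with 0.66, 0.53 and 0.52. For Tolloid they were Wnt9, Hox2 and the frizzled receptor gene Fzd9-10, with 0.55, 0.39 and 0.39. For ADMP they were Hox2, BMP2-4 and Tolloid, with 0.44, 0.34 and 0.32. Hox2 had only 17, 41 and 29 counts in the 3 series, so its r is weakly supported. Of 16988 unnamed loci compared, 221 were more like BMP2-4 than Hox11-13d was, 51 more like ADMP than Hox2, 2 more like Chordin than Hox9-10 and 89 more like Tolloid than Wnt9.

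Genes known to respond to BMP signals in ectoderm or neural plate of vertebrates or echinoderms did not share 1 course. Of 8 such genes listed, 4 were named in the table and 3 were tested. The homeobox gene Dlx had 0 counts in the proximo-distal series and was not tested. In the proximo-distal trend the homeobox gene Irx rose (log2 change 1.87 ± 0.40, edgeR adjusted p = 0.000484) and the homeobox gene Msx fell (-2.05 ± 0.59, edgeR adjusted p = 0.00681). The T-box gene Tbx2-3 had -0.79 ± 0.42 (edgeR adjusted p = 0.140). Its level was 94.2 ± 63.7 normalised CPM over sections 20 to 22, against 296.9 ± 33.5 over sections 16 to 19 (SD). Msx averaged 22.9 ± 8.74, 18.0 ± 11.1 and 9.64 ± 5.86 in sections 1 to 7, 8 to 15 and 16 to 22. Irx stood at 387.1 ± 134 over sections 20 to 22, against 77.8 ± 5.29 over sections 16 to 19. The median change of the 3 genes was -0.79, beside 0.01 over all loci tested, of which 20.3% rose and 19.1% fell.

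On the other axes the BMP-responsive genes also split. In inner against outer oral-aboral sections, a test that 41.3% of loci passed, Irx rose (1.76 ± 0.37, edgeR adjusted p = 0.00824), Tbx2-3 fell (-0.66 ± 0.20, edgeR adjusted p = 0.0271) and Msx had -0.85 ± 0.36 (edgeR adjusted p = 0.0843). In the left-right midline test, with 21.8% of loci called, Msx was lower toward the middle (-1.20 ± 0.35, edgeR adjusted p = 0.0188), with 22.5 ± 7.61 in the central sections and 46.2 ± 10.0 in the outer ones (SD). None of the 3 passed the oral-aboral trend or the left-right slope, which 0.754% and 1.07% of all loci passed, and none had an unadjusted p under 0.05 there (edgeR).

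Genes of ventral midline or neural territories that are low in BMP in vertebrates were called mostly upward in 3 comparisons. Of 6 listed, 5 were named: the signalling ligand Hedgehog and the transcription factors Nkx2.2, Nkx6, Nkx2.1 and FoxG. In the proximo-distal trend all 4 that were tested rose, where 20.3% of all loci did, with a median log2 change of 2.63 beside 0.01 over all loci. Of the 5, 4 rose in the inner oral-aboral sections, where 22.1% of all loci did (FoxG missed it, with 1.73 ± 0.61 and an edgeR adjusted p of 0.05003) and 4 toward the left-right middle, where 12.9% did (Nkx2.1 had an edgeR adjusted p of 0.0668). The medians were 2.13 and 3.36, beside 0.02 and 0.12 over all loci. No member passed the oral-aboral trend or the left-right slope, with those same shares of 0.754% and 1.07% over all loci, and none had an unadjusted p under 0.05 there (edgeR). No symbol matched the lists of other TGF-beta ligands, other BMP antagonists, or BMP receptors and Smads (11, 9 and 8 genes), which were not analysed here.

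**Figure D5:**
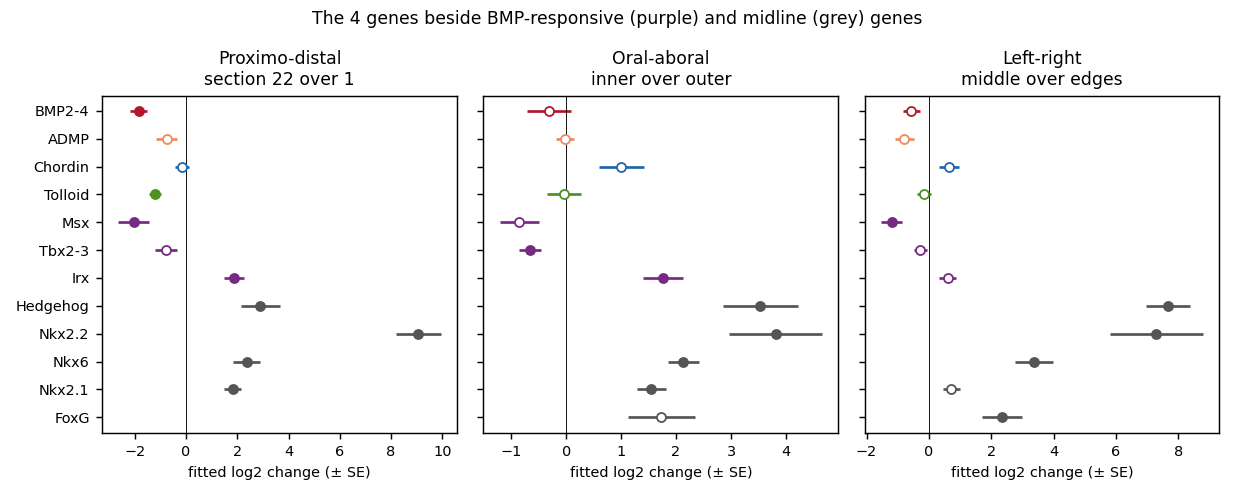
Fitted log2 change with its SE for the 4 genes, for 3 BMP-responsive genes (purple) and for 5 midline genes (grey) in 3 comparisons (FoxG was not tested in the proximo-distal trend), filled where the adjusted p was under 0.05. The midline genes lie to the right of 0 in all 3 panels, whereas Irx (1.87) and Msx (-2.05) lie on opposite sides in the proximo-distal trend.

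Markers of tissues moved along the same axes. Of 4 digestive markers listed, only FoxA, a forkhead factor of the gut, was named. Where BMP2-4 and Tolloid fell along the proximo-distal series, the level of FoxA in normalised CPM lay between 0 and 21.8 over sections 1 to 7, between 5.63 and 426.8 over sections 8 to 15 and between 191.6 and 1566 over sections 16 to 22. It averaged 511.6 in oral-aboral sections 3 to 6 and 73.8 in the outer sections, and 77.6 in the central and 15.3 in the outer left-right sections. Of 6 nervous markers listed, Otx and Pax6, both homeobox genes of neural tissue, were named. Their summed level was 3.16 to 65.7 in left-right sections 12 to 16 and 0 to 4.21 in sections 1 to 5, where Otx had 0 counts. It was highest in central sections 6 to 11, at 1.49 to 156.0 with a mean of 87.0. In the oral-aboral series it was 16.6 to 25.3 in sections 1 and 2, 1.10 to 35.1 in sections 3 to 6 and 0.211 to 1.22 in sections 7 and 8. In the proximo-distal series it was 17.7 to 166.3 in sections 1 to 7, 10.0 to 53.8 in sections 8 to 15 and 0 to 80.1 in sections 16 to 22. The 3 muscle and 3 skeleton markers listed matched no symbol. The part of tissue make-up in the changes of the 4 genes was not tested.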

How the data were processed

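The authors deposited raw read counts, whole numbers for each transcript model in each section, and the totals differ between libraries. The labels' protocols name HistoPrep embedding, cryosectioning, column and Trizol extraction and Iso-Seq library kits. It was not examined whether such libraries gave the counted reads, and how reads were mapped, counted and filtered, and on which build, is not given in the sources used. All 46 library columns were used, each assigned through the code that the sample title carries. Rows of a locus were summed (25794 rows, 23869 loci). Named rows carry the assembly tag V2 and the others V4, so reads of a gene may also lie in an unnamed row.

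Each series was fitted alone with edgeR 4.0.16 in R 4.3.3: filterByExpr (min.count 5, min.total.count 15), TMM scaling, glmQLFit and glmQLFTest, with Benjamini-Hochberg adjustment over all loci tested (threshold 0.05). Position ran between 0 and 1 over a series. The left-right fit had position and its square, and any pattern was tested by a natural spline of 3 df. Blocks of sections were compared by their levels and SDs. Ratios were log2 of counts with 0.5 added to each, tested by two-sided permutation of sections, exact for 8 sections and for the block contrasts by enumeration, and otherwise with 100000 resamples, and adjusted over 24 tests (Python 3.11.15, numpy 2.4.6). Permutation assumes that sections are exchangeable. Intervals are exact Poisson at 95%, and reads have no molecular identifiers, so they cover counting error only. The fits were also run on simulated counts drawn independently for each section, so resemblance between neighbouring sections was not simulated.

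The 4 genes and the gene lists were chosen with earlier results of these data known. The 4 genes were analysed in every comparison, and not every value is printed. The text also names the 3 symbol-named genes most like each, and every listed pathway gene that carries a symbol. Likeness was the mean over the 3 series of Pearson r of log2 CPM with a prior count of 2. It was taken among loci with 15 or more counts in each series. Other settings tried were total count alone, DESeq2-style size factors, no filter, a minimum count of 10, log2 total count as a covariate, leaving out end sections, each section or the locus with the largest share, DESeq2 1.42.0, limma-trend 3.58.1, blocks in place of position, and other added counts and mirror planes. Leaving out sections 20 to 22 and each section for the ratios was added after the data were seen.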

Additional observations from a re-analysis of the deposited data

Results flagged for a closer look

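Of 52 groups of 4 to 10 sections checked for a section far from the others, 2 were flagged, where chance flags about 1 in 20. BMP2-4 had 21.1 normalised CPM in proximo-distal section 22, on 7 counts, far below the other sections numbered 16 to 22, of which the next lowest had 87.8. Leaving section 22 out kept the proximo-distal call of BMP2-4. Tolloid had 104.6 normalised CPM in proximo-distal section 7, below the other sections numbered 1 to 7, of which the next lowest had 134.6. The cause of either was not tested.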

How the results depend on the processing

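No paired analysis was possible because the 3 series share section numbers but are different planes or arms and are not compared with each other. This holds for pairing across series, and the mirror pairs are within the left-right series. The proximo-distal trends of BMP2-4 and Tolloid kept direction and call under every alternative tried. ADMP passed there with total count alone (-1.36, edgeR adjusted p = 0.0246) and without sections 20 to 22 (-1.75), and Chordin with total count alone (-0.89; spline adjusted p = 0.00366). The median change of all loci was -0.66 with total count alone, against 0.01 as reported, in the proximo-distal trend, and 0.49 against 0.12 in the left-right midline test.

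The oral-aboral trend of BMP2-4 lost its call with total count alone (1.37), no low-count filter (1.77), the depth covariate (1.64), without both end sections (1.94), without the locus with the largest share (1.79) and with sections 6 to 8 against 1 to 3 (1.21), and it was 1.45 to 2.00 without 1 section. Loci called in this trend numbered 149, against 93 with the covariate, 84 without end sections, 599 with DESeq2, 64 to 358 without 1 section and 0 with sections 6 to 8 against 1 to 3 by edgeR, where 1408 of 18717 had an unadjusted p under 0.05. ADMP, never called, had -0.30 with total count alone and -0.073 to 0.31 without 1 section.

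For inner against outer oral-aboral sections, total count alone gave 0.16 for ADMP and 0.071 for Tolloid, and limma-trend gave 0.075 for Tolloid and 1.20 for Chordin. The square of position, fitted beside a slope, gave 0.053 for BMP2-4, 0.22 for ADMP, 0.31 for Tolloid and 1.78 for Chordin. Without 1 section the values were -0.65 to 0.028 for BMP2-4, -0.18 to 0.051 for ADMP, 0.68 to 1.44 for Chordin and -0.32 to 0.19 for Tolloid. Loci called numbered 8165, against 4820 without end sections and 5182 to 9286 without 1 section. The oral-aboral spline called 4621 loci without end sections, against 8722, and lost Tolloid (adjusted p = 0.0763; 0.0195 to 0.183 without 1 section).

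In the left-right midline test Chordin passed with total count alone (1.01) and without end sections (1.45), ADMP with the covariate (-0.93) and BMP2-4 without end sections (-1.08), while Tolloid had 0.23 with total count alone. Without 1 section the values were -0.93 to -0.36 for BMP2-4, -0.92 to -0.44 for ADMP, 0.50 to 1.11 for Chordin and -0.39 to 0.081 for Tolloid, and 1 fit each passed for BMP2-4 (without section 1, edgeR adjusted p = 0.0128), ADMP (without section 9, 0.0380) and Chordin (without section 16, 0.0467). The left-right spline called Chordin with total count alone (adjusted p = 0.0422) and ADMP with the covariate (0.0135). The slope of BMP2-4 lost its call with total count alone (-1.09), limma-trend (-1.22) and sections 12 to 16 against 1 to 5 (-1.02), and was -1.62 to -1.16 without 1 section. Loci called for the slope numbered 177, against 284 with total count alone, 52 with limma-trend and 67 with those blocks. With the mirror plane through section 9 Tolloid also passed (-0.29, exact permutation adjusted p = 0.0313).

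Chordin along the arm was -0.32 to 0.0072 without 1 section. Of the ratios, BMP2-4 over ADMP and ADMP over Tolloid on the oral-aboral axis lost their calls without both end sections (permutation adjusted p = 0.0533 and 0.177). The number of ratio tests passing was 6, and 4 to 7 without 1 section. Uncalled ratios changed sign without 1 section in the inner-minus-outer contrast (ADMP over Tolloid -0.31 to 0.17, BMP2-4 over ADMP -0.35 to 0.16, BMP2-4 over Tolloid -0.66 to 0.32) and in the oral-aboral slope of Chordin over Tolloid (-1.24 to 0.10). The cause of these changes was not tested. Counts of 3 to 40 a section limit ADMP and Chordin in the proximo-distal series.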
